A study of Mus musculus with 10 samples.

Results

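Levels of T-box transcription factor genes were followed while mouse fibroblasts were reprogrammed toward pluripotency. The set holds 10 genes: Tbx1, Tbx2, Tbx3, Tbx4, Tbx5, Tbx15, Tbx18, Tbx20, T and Eomes. They were chosen by their levels in these same libraries, so their levels and differences are given as a description, without a test. They are 10 of the 45706 genes in the tables and 10 of the 17 T-box genes among them. All 10 passed the filter on low counts, T and Tbx20 with at most 12 and 21 reads in any library.

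T-box factors share a DNA-binding domain that recognises a short element with the core TCACACC. Some members mainly activate genes, whereas Tbx2, Tbx3, Tbx15 and Tbx18 are known as repressors. The family is named after T (brachyury), which is needed for the primitive streak, the posterior mesoderm and the notochord. Eomes acts in the trophoblast and in the streak, and Tbx3 belongs to the network that sustains self-renewal of mouse embryonic stem cells. In the embryo Tbx4 and Tbx5 are known for the hindlimb and forelimb buds. Tbx15 and Tbx18 act in mesenchyme, Tbx1 in the pharyngeal arches and Tbx20 in the heart.

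RNA came from 5 groups with 2 libraries each. Mouse embryonic fibroblasts (MEFs, strain C57BL/6 x 129) carried the OKSM cassette, which encodes Oct4 (Pou5f1), Klf4, Sox2 and Myc, in Col1a1 and the transactivator M2rtTA in Rosa26. They were grown in MEF medium, without doxycycline. The same kind of cells were induced in ESC medium with doxycycline at 1 µg/ml and ascorbic acid at 50 µg/ml for 3, 6 or 9 days. Day 3 cells were the whole culture, whereas SSEA1, a surface marker gained on the way to pluripotency, was used to sort the day 6 and day 9 cells. The reference embryonic stem cells (ESCs) of the V6.5 line, without the cassette, grew unsorted on irradiated feeders in ESC medium with LIF. Between MEFs and day 3 the medium, doxycycline and ascorbic acid changed together, and between day 3 and day 6 the sort was added to time. Between day 9 and ESCs the line, cassette and sort differed together, and doxycycline and ascorbic acid are given for induced cells only. These parts of each difference cannot be told apart. The labels do not say whether replicates were separate cultures, so p-values measure only the spread between these libraries.

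Libraries held 29585876 to 38275024 estimated reads. Pou5f1 and Sox2 RNA, which the cassette also encodes, averaged 2.98 and 3.36 CPM in MEFs and 233 and 258 CPM at day 3. The other two cassette genes were already high in MEFs and differed less, Klf4 with 325 and 461 CPM and Myc with 118 and 276 CPM in MEFs and at day 3. CPM here means counts scaled to library depth with TMM, and TPM also corrects for transcript length. The summed TPM of 10 fibroblast markers, among them Col1a1 and Postn, was 9310 and 8870 in MEFs, 487 and 501 in day 3 cells, and 10.8 and 11.2 by day 9. In ESCs it was 742 and 780, and no fibroblast marker was at 0 in all libraries. In bulk RNA, fewer cells that express a gene and less RNA per cell cannot be told apart. Values below are given for replicate 1 and then replicate 2, and means are ± SD with n = 2.

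**Figure D1:**
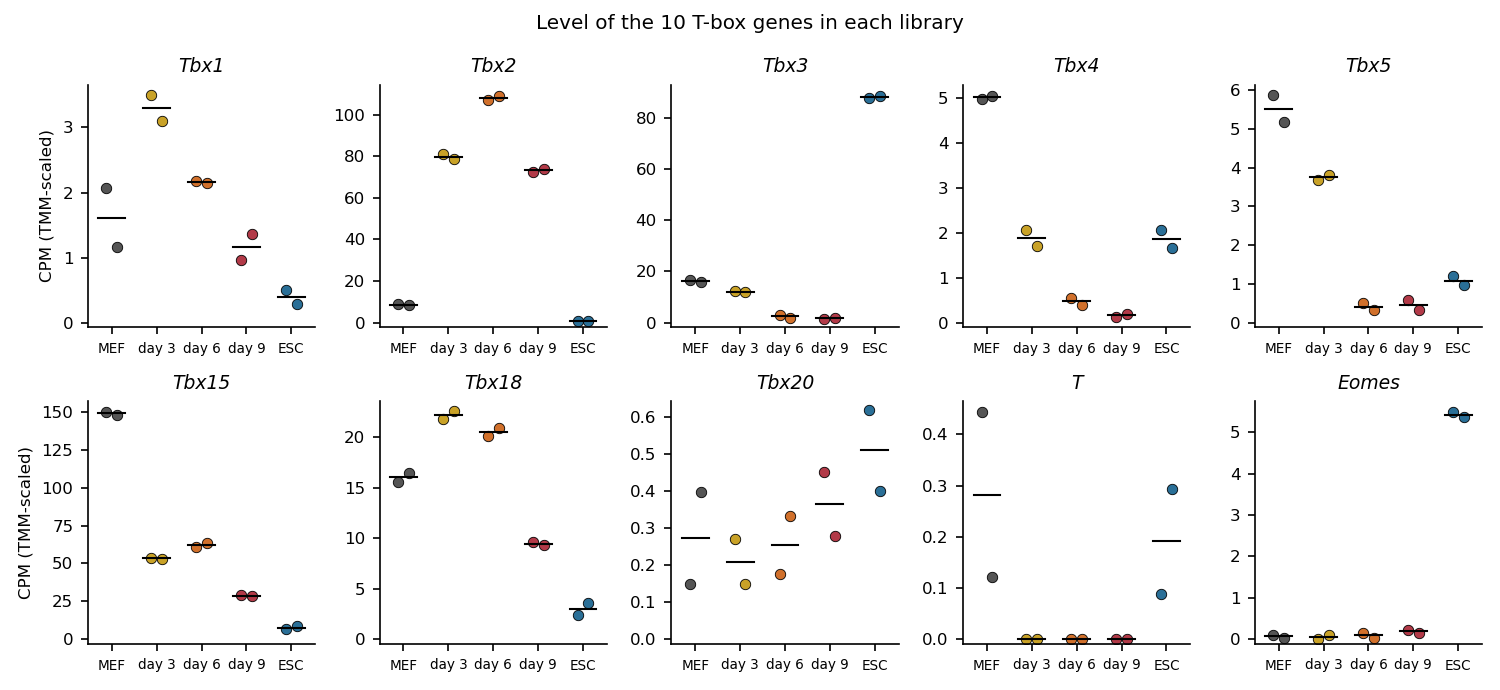
CPM of each of the 10 T-box genes (vertical axis, linear, own scale for each gene) in the 5 groups. Points are the 2 libraries of a group and lines their mean. Tbx15 is highest in MEFs at 150 and 148 CPM, Tbx2 highest at day 6 at 107 and 109 CPM, and Tbx3 and Eomes highest in ESCs.

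Of the summed TPM of the 10 genes, Tbx15 carried most in MEFs, shared it with Tbx2 during induction, and gave way to Tbx3 in ESCs. Tbx15 (ENSMUSG00000027868.9, chromosome 3, 99240381 to 99354259, plus strand, GRCm38), a factor of skeletal and skin mesenchyme, was at 150 and 148 CPM in MEFs. Day 3 cells had 53.5 and 53.2 CPM, day 6 cells 60.8 and 63.6 CPM, day 9 cells 29 and 28.3 CPM and ESCs 6.42 and 8.52 CPM. No 2 groups overlapped, and the 2 libraries of a group lay within a few CPM of each other. The log2 fold change was -1.48 (SE 0.06) from MEF to day 3, 0.22 (SE 0.06) to day 6, -1.12 (SE 0.06) to day 9 and -1.93 (SE 0.09) to ESC. At day 9 the 10 fibroblast markers summed to 10.8 and 11.2 TPM, and Tbx15 was at 7.7 and 4.43 TPM. The part of remaining fibroblasts in the Tbx15 level was not tested.

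Tbx18 (ENSMUSG00000032419.8, chromosome 9, 87702800 to 87731260, minus strand), the close relative of Tbx15 known from somites, ureter and sinus node mesenchyme, kept its level longer. Its values were 15.6 and 16.5 CPM in MEFs, 21.8 and 22.6 CPM at day 3 and 20.1 and 20.9 CPM at day 6. It was lower at day 9, with 9.61 and 9.32 CPM, and lowest in ESCs, with 2.39 and 3.55 CPM. Neighbouring groups did not overlap at any step. The log2 fold change was 0.47 (SE 0.09) to day 3, -0.11 (SE 0.09) to day 6, -1.12 (SE 0.1) to day 9 and -1.66 (SE 0.13) to ESC. From day 6 to day 9 Tbx15 and Tbx18 thus had the same fitted value.

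Tbx2 (ENSMUSG00000000093.6, chromosome 11, 85832551 to 85841948, plus strand) is a repressor known for holding back cell-cycle inhibitors and chamber genes of the heart. MEFs had 8.9 and 8.41 CPM. Induced cells had 80.8 and 78.5 CPM at day 3, 107 and 109 CPM at day 6 and 72.5 and 73.8 CPM at day 9. ESCs had 0.737 and 0.801 CPM, from 25 and 30 reads. All 6 induced libraries lay above all 4 others. The log2 fold change was 3.2 (SE 0.05) from MEF to day 3, 0.44 (SE 0.04) to day 6, -0.56 (SE 0.04) to day 9 and -6.56 (SE 0.08) to ESC. The ratio of the day 6 and ESC means was 140.

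Tbx3 (ENSMUSG00000018604.16, chromosome 5, 119670669 to 119684724, plus strand) is the nearest relative of Tbx2 and a repressor as well. Unlike Tbx2, it was lower at day 3 than in MEFs and highest in ESCs. Tbx2 was lower at day 9 than at day 6. For Tbx3 this held for the mean CPM but not for TPM, with 0.506 and 0.386 TPM at day 6 and 0.37 and 0.652 TPM at day 9. The Tbx3 level was 16.5 and 16.0 CPM in MEFs and 12.2 and 11.8 CPM at day 3. At day 6 it was 2.94 and 2.0 CPM and at day 9 1.29 and 2.0 CPM, so that replicate 2 of both groups had the same rounded value. ESCs stood far above with 87.7 and 88.6 CPM. The log2 fold change was -0.43 (SE 0.1) to day 3, -2.28 (SE 0.14) to day 6, -0.56 (SE 0.2) to day 9, and 5.71 (SE 0.11) from day 9 to ESC. With 1 of the day 6 or day 9 libraries left out, the step to day 9 ran from -0.94 to -0.25. Cells sorted for SSEA1 at day 9 therefore held less Tbx3 RNA than the fibroblasts, with a log2 fold change of -3.27 (SE 0.14), and ESCs more, with 2.44 (SE 0.08).

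Tbx4 and Tbx5, the limb bud pair, were both low and highest in MEFs. Tbx4 (ENSMUSG00000000094.10, chromosome 11, 85886422 to 85916097, plus strand) lies near Tbx2, on the same strand. It was at 4.99 and 5.06 CPM in MEFs, 2.07 and 1.71 CPM at day 3, 0.559 and 0.393 CPM at day 6, 0.129 and 0.202 CPM at day 9 and 2.06 and 1.66 CPM in ESCs. Day 9 rests on 4 and 8 reads. The fitted log2 fold changes were -1.4 (SE 0.24), -1.98 (SE 0.29), -1.48 (SE 0.41) and then 3.43 (SE 0.35), and groups in sequence did not overlap. Near as the 2 genes lie, Tbx2 was higher in induced cells than in MEFs and Tbx4 lower.

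Tbx5 (ENSMUSG00000018263.9, chromosome 5, 119832668 to 119885219, plus strand), also a factor of the heart, lies beside Tbx3. It was at 5.87 and 5.18 CPM in MEFs, 3.69 and 3.81 CPM at day 3, 0.5 and 0.333 CPM at day 6, 0.579 and 0.328 CPM at day 9 and 1.21 and 0.961 CPM in ESCs. Day 6 and day 9 overlapped. The step to day 6 had a log2 fold change of -3.16 (SE 0.3), and that from day 9 to ESC of 1.28 (SE 0.32). Tbx3 and Tbx5 thus shared the low level at day 6 and day 9, and in ESCs Tbx3 was above its MEF level and Tbx5 below it. For Tbx5 the log2 fold change between those groups was -2.35 (SE 0.26).

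Tbx1 (ENSMUSG00000009097.9, chromosome 16, 18580979 to 18590671, minus strand), the pharyngeal arch gene of the region deleted in DiGeorge syndrome, was at 2.07 and 1.16 CPM in MEFs. It was at 3.5 and 3.1 CPM at day 3, 2.18 and 2.15 CPM at day 6, 0.964 and 1.36 CPM at day 9 and 0.501 and 0.294 CPM in ESCs. Day 9 overlapped MEFs, and ESCs lay below all others. The log2 fold change from MEF to day 3 was 1.05 (SE 0.3), and without MEF replicate 2 it was 0.68. From day 9 to ESC it was -1.57 (SE 0.38). Tbx20 (ENSMUSG00000031965.12, chromosome 9, 24718138 to 24774303, minus strand), a heart factor, had 4 to 21 reads per library, or 0.148 to 0.619 CPM. Its groups overlapped at each of the 4 steps.

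T and Eomes, the pair of the primitive streak, were near or at 0 during induction. T (ENSMUSG00000062327.8, chromosome 17, 8434423 to 8442496, plus strand) had 12 and 4 reads in MEFs, 3 and 11 reads in ESCs and 0 in all 6 induced libraries. A count of 0 allows up to 3 reads, or 0.0758 to 0.0964 CPM in these libraries, for counting error only. T was at least 3.33-fold lower at day 3 than in MEFs and at least 2.22-fold higher in ESCs than at day 9, with the floor of 3 reads taken per library. Each bound leans on 1 library. Without MEF replicate 1, 4 reads remain and the first bound is 1.44-fold, and without ESC replicate 2 the remaining 3 reads are at the floor and give no fold. Eomes (ENSMUSG00000032446.12, chromosome 9, 118478212 to 118486132, plus strand) had at most 7 reads in any library outside ESCs and 186 and 201 reads in ESCs. On the CPM scale ESCs had 5.48 and 5.37 and all others at most 0.225. The log2 fold change from day 9 to ESC was 4.85 (SE 0.48).

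Of these streak genes and of Tbx21, the relative of Eomes described further on, the 250 bases before the start site are shown, because the 3 genes differed in course: Eomes had its reads in ESCs, Tbx21 in induced cells, and T had none in induced cells. The sequences are from RefSeq (GRCm38.p6), read 5′ to 3′ on the gene's strand, and capitals mark the GC box GGGCGG or its reverse complement CCGCCC, an element known to be bound by Sp and Krüppel-like factors.
Eomes promoter, chr9:118477939-118478188, plus strand: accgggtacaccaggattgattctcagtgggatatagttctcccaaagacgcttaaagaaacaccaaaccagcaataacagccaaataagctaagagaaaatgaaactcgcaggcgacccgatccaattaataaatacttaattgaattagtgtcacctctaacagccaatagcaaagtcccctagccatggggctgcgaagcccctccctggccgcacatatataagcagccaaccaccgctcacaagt
T promoter, chr17:8434173-8434422, plus strand: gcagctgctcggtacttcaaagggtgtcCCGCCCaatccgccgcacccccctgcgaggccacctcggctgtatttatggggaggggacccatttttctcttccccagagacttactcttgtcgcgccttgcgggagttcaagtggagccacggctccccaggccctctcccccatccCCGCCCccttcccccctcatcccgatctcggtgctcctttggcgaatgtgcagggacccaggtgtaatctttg
Tbx21 promoter, chr11:97115332-97115581, minus strand: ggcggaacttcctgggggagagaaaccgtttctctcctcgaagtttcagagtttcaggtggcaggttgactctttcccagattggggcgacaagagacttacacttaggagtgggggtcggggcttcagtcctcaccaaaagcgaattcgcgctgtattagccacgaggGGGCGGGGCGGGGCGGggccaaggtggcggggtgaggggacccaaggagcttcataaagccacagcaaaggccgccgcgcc
The Eomes window held no GC box, the T window 2, at -219 and -70 from the start, and the Tbx21 window 3 that overlap, at -78, -73 and -68. Over all 32851 RefSeq windows of 300 bases (250 before and 50 after the start), 35.7% held a GC box. GC content was 47.3% for Eomes, 61.7% for T and 62.0% for Tbx21, beside a median of 52.7% over all windows. CpG dinucleotides numbered 10, 17 and 21, beside a median of 7. A match is a description of the letters, not evidence of binding.

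Windows were matched for 6 members, Tbx1 (with 2 windows), Tbx4, Tbx18, Tbx20, T and Eomes. On either strand none of the 7 held TCACACC, the core of the T-box element, which 4.0% of all windows held. None held CCACACCC, a Krüppel-like factor element (3.6% of all windows), or CTTTGAT, a TCF/LEF element (3.7%). The GC box was in 4 of the 7, and TATAAA in 1, that of Tbx4, at -82 on the opposite strand (13.6% of all windows).

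**Figure D2:**
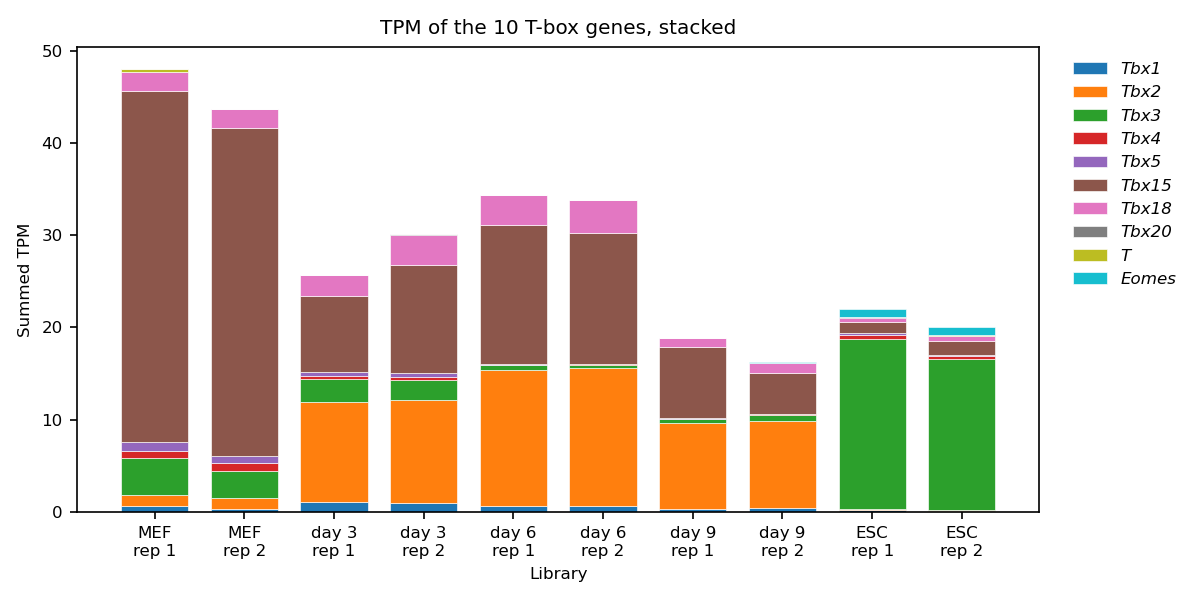
TPM of the 10 T-box genes stacked for each of the 10 libraries (vertical axis: summed TPM, linear). Tbx15 fills 79.3% and 81.4% of the MEF bars, Tbx2 and Tbx15 most of the induced bars, and Tbx3 84.1% and 81.8% of the ESC bars.

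Compared per length in TPM, the 10 genes together amounted to 48 and 43.7 in MEFs. Day 3 libraries had 25.7 and 30.1, day 6 libraries 34.4 and 33.8, day 9 libraries 18.9 and 16.2 and ESC libraries 22.0 and 20. Tbx15 made up 79.3% and 81.4% of this sum in MEFs. During induction Tbx2 made up 42.6% and 36.8% at day 3, 42.7% and 43.9% at day 6 and 49.7% and 58.5% at day 9. In ESCs Tbx3 made up 84.1% and 81.8%, and Eomes 3.81% and 4.16%. So among the 10 genes Tbx15 led in MEFs, Tbx2 at day 9 and Tbx3 in ESCs, whereas Tbx2 and Tbx15 overlapped in TPM at day 3 and at day 6. That overlap leans on a short transcript, Tbx15-002 of 333 nt, with 0.292% and 1.39% of Tbx15 reads at day 3 and 2.02% and 1.58% at day 6. The main transcripts are of similar length. At day 6 Tbx15-001 (3566 nt) had 2025.2 and 2069.8 estimated reads and Tbx2-001 (3626 nt) 3634 and 3602. At day 3 they had 1981.2 and 1776.4, and 3002 and 2654.

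The order behind the leading gene differed between groups. In MEFs Tbx3 (3.44 ± 0.697 TPM) came before Tbx18 (2.06 ± 0.0113) and Tbx2 (1.17 ± 0.0643), while Tbx5 (0.839 ± 0.118) and Tbx4 (0.827 ± 0.00503) overlapped. At day 6 Tbx18 (3.41 ± 0.264 TPM) came before Tbx1 (0.655 ± 0.0105) and Tbx3 (0.446 ± 0.0844), with no overlap. In ESCs Tbx15 (1.36 ± 0.23 TPM) came before Eomes (0.836 ± 0.00353) and Tbx18 (0.506 ± 0.0133), and Tbx5, Tbx1 and Tbx2 were at or below 0.236 TPM. T and Tbx20 closed the order in ESCs with 0.0726 ± 0.0231 and 0.0401 ± 0.0127 TPM. In TPM, Tbx15 at day 9 was 7.7 and 4.43 although its CPM were 29 and 28.3. The transcript Tbx15-002 of 333 nt, which took 2.63% and 0.515% of the Tbx15 reads in those libraries, weighs heavily per length.

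Read shares by transcript were steady for some members and not for others. They are estimates, and no counting interval covers how reads that fit several transcripts were shared out. Tbx15-001 of 3566 nt carried 97.4% to 99.7% of Tbx15 reads in the 10 libraries, and Tbx18-001 96.4% to 100% of Tbx18 reads. In ESCs Eomes-001 carried 93.9% and 94.7%. For Tbx3, the coding transcripts Tbx3-001 (4856 nt) and Tbx3-002 (4777 nt) traded reads between replicates: at day 6 Tbx3-001 had 94.9% and 21.1%, and at day 3 13.6% and 67.9%. In ESCs, with the most Tbx3 reads, its shares were 55.8% and 52.4%. Transcript shares of Tbx3 outside ESCs are therefore not compared between groups.

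**Figure D3:**
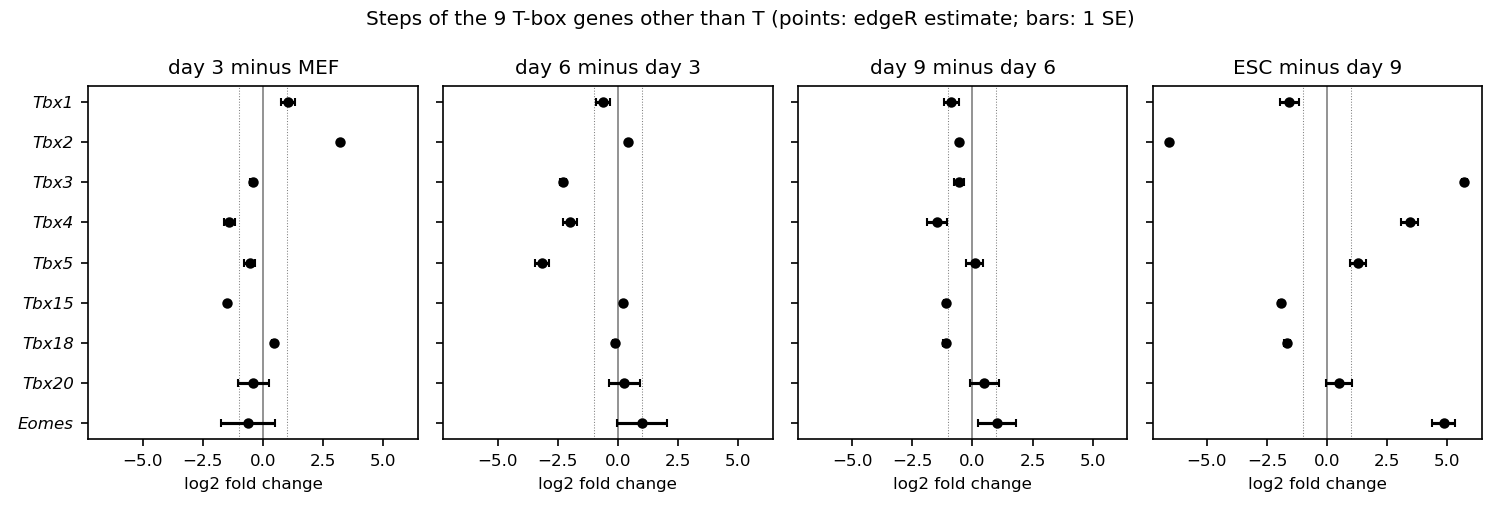
Log2 fold change (horizontal axis) of 9 T-box genes at the 4 successive steps. Points are edgeR estimates, bars are 1 SE, and dotted lines mark a 2-fold difference. T is left out because it has 0 reads in the induced libraries. At the ESC step Tbx3 lies at 5.71 and Tbx2 at -6.56.

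By the rule used for all 20165 tested genes (edgeR's quasi-likelihood test, Benjamini-Hochberg adjusted p under 0.05 and at least 2-fold), the members can be counted, but since they were chosen by these values nothing is read from the counts. From MEF to day 3, 2 members were higher (Tbx1, Tbx2) and 3 lower (Tbx4, Tbx15, T), with 14.6% of all genes higher and 14.5% lower. From day 3 to day 6, 0 were higher and 3 lower (Tbx3, Tbx4, Tbx5), with 9.26% and 10.2% of all genes. From day 6 to day 9, 0 were higher and 3 lower (Tbx4, Tbx15, Tbx18), with 5.18% and 2.68%. At the ESC step, 5 were higher (Tbx3, Tbx4, Tbx5, T, Eomes) and 4 lower (Tbx1, Tbx2, Tbx15, Tbx18), with 18.6% and 14.3%. The counts were 3 higher and 2 lower with limma on log2(TPM + 0.1), 1 and 2 with log2(TPM + 1), and 3 and 4 without day 9 replicate 2. Across the whole span from MEF to ESC 2 were higher and 6 lower, with 25.5% and 20.6% of all genes. From MEF to day 9 only Tbx2 was higher and 5 were lower, with 24.1% and 19.8%. These comparisons share groups with each other, so their values are not independent.

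The ESCs were grown on feeders, and the members that were lower there than in MEFs can be set beside the fibroblast markers. Tbx4 in ESCs stood at 37.0% of its MEF level, Tbx1 at 24.6%, Tbx5 at 19.6%, Tbx18 at 18.5%, Tbx2 at 8.88% and Tbx15 at 5.01%. Of these 6, Tbx4 and Tbx5 were higher in ESCs than at day 9 and the others lower. For the 10 fibroblast markers the same share ran from 1.11% to 14.0%, with a median of 6.83%. Tbx2 and Tbx15 thus lay within the range of the markers and the other 4 above it. The part of feeder RNA in these levels was not tested.

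The 7 T-box genes outside the 10 were followed as well, with the test. Tbx21 (T-bet; ENSMUSG00000001444.2, chromosome 11, 97098071 to 97115331, minus strand), known as a master factor of type 1 T helper cells, had 0 reads in both MEF libraries. It had 174 and 149 reads at day 3, 579 and 582 at day 6, 226 and 306 at day 9 and 5 and 19 in ESCs. In CPM this was 4.68 and 4.4, then 17.0 and 17.6, then 7.26 and 7.73, and 0.147 and 0.507 in ESCs. Tbx21 rose at least 44.9-fold from MEF to day 3 (edgeR adjusted p = 7.1e-09), and again to day 6 (log2 fold change 1.93, SE 0.16, adjusted p = 3.4e-07). It then fell to day 9 (log2 fold change -1.21, SE 0.16, adjusted p = 4.9e-05) and from day 9 to ESC (-4.47, SE 0.26, adjusted p = 4.2e-09). At each of these steps both libraries of a group lay on the same side of both libraries of the other. With limma on log2(TPM + 1), which compresses levels near 1 TPM, the values to day 3 (0.96) and to day 9 (-0.9) fell just short of 2-fold.

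Markers of T and NK cells were near 0. Their summed TPM over 7 genes was at most 0.157 outside ESCs and averaged 0.908 in ESCs, and Ncr1 and Ifng were at 0 in all 10 libraries. Sums over the other marker lists were also taken. Cardiomyocyte markers averaged 10.5 TPM in MEFs, 17.5, 34.2 and 28.6 TPM in the day 3, day 6 and day 9 cells, and 17.5 TPM in ESCs. Endothelial markers averaged 2.95, 18.4, 18.3, 9.74 and 21.8 TPM in the same order, keratinocyte markers 4.15, 1.19, 3.59, 25.8 and 21.3 TPM, and neural progenitor markers 10.8, 16.3, 8.42, 8.18 and 10.7 TPM. The endothelial genes went different ways: in ESCs Pecam1 was at 99.0 CPM beside 0.381 in MEFs, while Cdh5, Kdr and Emcn were below their MEF means, and Tek was the highest of the 5 in induced cells, with 121, 109 and 68.3 CPM. From MEFs to day 6 the cardiomyocyte genes were split: Tnni3 went from 1.37 to 9.76 CPM and Ryr2 from 1.03 to 4.67 CPM. Tnnt2 went from 8.71 to 1.05 CPM and Actn2 from 3.17 to 0.716 CPM, while Myl2, Myl7 and Pln stayed at or below 0.196 CPM. Of the keratinocyte genes at day 9, Sfn had 44.4, Krt6a 26.3 and Krt17 14.6 CPM, and the others at most 2.14 CPM. The neural progenitor genes were split too. From MEFs to ESCs Sox1 went from 0 to 14.5 CPM and Pax6 from 0.374 to 8.09 CPM, while Nes went from 108 to 76.4 CPM. Fabp7 was highest at day 3, with 10.9 CPM, and at 0.277 CPM in ESCs, and Neurog2 was highest at day 9, with 2.92 CPM. The part of any such cells in the T-box levels was not tested.

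Mga, which joins a T-box to a Max-binding domain, was in TPM the highest T-box gene in ESCs, at 20.4 and 20 beside 18.5 and 16.4 for Tbx3. At day 9 it was above Tbx2 as well, at 11.1 and 10.4 TPM beside 9.39 and 9.48. Its CPM were 82.2 and 81.2 in MEFs, 96.1 and 100 at day 3, 134 and 136 at day 6, 135 and 128 at day 9 and 214 and 211 in ESCs. From MEF to ESC its level rose (log2 fold change 1.38, SE 0.04, edgeR adjusted p = 1.7e-13), with no single step reaching 2-fold. Tbx6, a presomitic mesoderm factor, had 13 to 39 reads per library and passed both thresholds in no comparison. With library-size scaling it did pass against MEFs, at day 3 (log2 fold change 1.12) and in ESCs (1.26). Without day 3 replicate 1 its day 3 value was 1.12. Tbr1, a cortical neuron factor and the third gene of the Eomes and Tbx21 group, had 1 to 14 reads and passed in no comparison. With RLE scaling it was called lower at day 6 than at day 3 (-1.75), and without day 6 replicate 1 that value was -2.94. In the fit of only 2 groups it was called lower at day 9 than in MEFs (-1.26). Tbx10 had 6 and 8 reads, in ESCs only, Tbx19 at most 5 and Tbx22 at most 1, and these 3 were not tested.

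**Figure D4:**
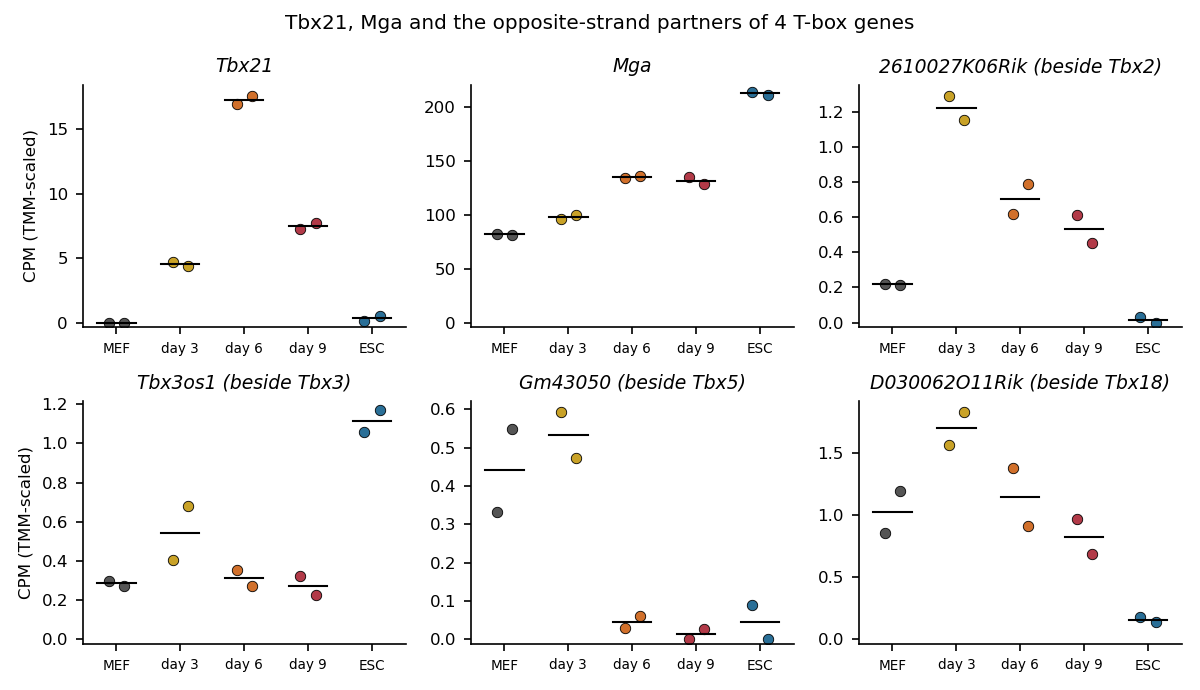
CPM (vertical axis, linear, own scale for each gene) of Tbx21, Mga and 4 genes on the opposite strand beside Tbx2, Tbx3, Tbx5 and Tbx18. Points are the 2 libraries of a group and lines their mean. Tbx21 is at 0 in MEFs and highest at day 6, Mga is highest in ESCs, and the partners of Tbx2 and Tbx18 are highest at day 3.

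Genes on the opposite strand lay close to several members. Searching for genes that overlap a member or start within 5 kb of its start gave 8, all on the opposite strand, of which 6 were in the tables and 4 were tested. This search was chosen after the members' levels were seen. The library kit marks strand, but whether the quantification used it is not given in the sources used here, so the partners that overlap a member may hold its reads. 2610027K06Rik (chromosome 11, 85791661 to 85832223, minus strand) starts 328 bp from Tbx2 and does not overlap it. Its CPM were 0.222 and 0.213 in MEFs, 1.29 and 1.15 at day 3, 0.617 and 0.786 at day 6, 0.611 and 0.455 at day 9 and 0.0295 and 0 in ESCs. It rose from MEF to day 3 (log2 fold change 2.47, SE 0.45, edgeR adjusted p = 0.00025) and fell from day 9, with 19 and 18 reads, to ESC, with 1 and 0 reads (adjusted p = 4.6e-05). Both calls were lost with limma on log2(TPM + 1).

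Gm43050, a lincRNA that starts 748 bp from Tbx5 without overlap, had 22 and 16 reads at day 3 and 1 and 2 reads at day 6 (edgeR adjusted p = 0.0026). Tbx3os1, an antisense gene that overlaps the start of Tbx3, was at 0.321 and 0.227 CPM at day 9 and 1.06 and 1.17 CPM in ESCs (log2 fold change 2.03, SE 0.43, adjusted p = 0.00071). That call was lost with limma on TPM, with either pseudocount. D030062O11Rik, which overlaps Tbx18, fell from 0.964 and 0.682 CPM at day 9 to 0.177 and 0.134 CPM in ESCs (log2 fold change -2.38, SE 0.45, adjusted p = 0.00033). That call too was lost with limma on TPM, with either pseudocount. The members and the partner search were chosen with the members' levels in view, so signs are compared only as a description. At each of these calls the fold change of the T-box gene beside the partner had the same sign. At steps without a call signs also differed: from day 3 to day 6 2610027K06Rik had -0.8 and Tbx2 0.44, and from MEF to day 3 Tbx3os1 had 0.91 and Tbx3 -0.43.

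The nearest protein-coding genes on either side gave another view of the same places. Of 17 such neighbours 13 were tested, and over the 4 steps 5 of 52 values were called higher and 4 lower. Of all genes, 14.6%, 9.26%, 5.18% and 18.6% were higher at the 4 steps and 14.5%, 10.2%, 2.68% and 14.3% lower. Nothing about these places is read from the counts. Beside Tbx1, Gnb1l rose from 4.53 to 13.9 CPM from MEF to day 3 (log2 fold change 1.62, SE 0.13, edgeR adjusted p = 3.6e-08). Gp1bb, on the other side of Tbx1, fell at that step (-1.9, SE 0.31, adjusted p = 7.3e-05) and rose from day 9 to ESC (1.4, SE 0.36, adjusted p = 0.0033), a call lost with limma on TPM and without ESC replicate 2 (0.9). Next to Tbx2, Bcas3 rose from 25.4 to 51.2 CPM from MEF to day 3 (1.01, SE 0.05, adjusted p = 2.7e-10), just past 2-fold. That call was lost with DESeq2, with RLE scaling, in the fit of the 2 groups alone and without day 3 replicate 1 (1.0, rounded from below).

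Nt5e, which encodes the surface enzyme CD73 and lies 595.9 kb from Tbx18, rose from 18.2 to 78.0 CPM from day 3 to day 6 (2.1, SE 0.05, edgeR adjusted p = 1.6e-13). It fell from 74.5 CPM at day 9 to 2.28 CPM in ESCs (-5.03, SE 0.07, adjusted p = 3e-16). Pde10a, a phosphodiesterase gene 82.9 kb from T, fell from 10.1 to 2.79 CPM to day 3 (-1.85, SE 0.18, adjusted p = 4.6e-07) and to 0.238 CPM at day 6 (-3.53, SE 0.28, adjusted p = 7.1e-08). It rose again from 0.398 CPM at day 9 to 3.59 CPM in ESCs (3.17, SE 0.25, adjusted p = 3.9e-08). Wars2, only 1.2 kb from Tbx15, passed at no step, nor did Med13l and Rbm19, which flank the Tbx3 and Tbx5 pair. Against MEFs, Wars2 was lower in ESCs, at 6.23 beside 15.6 CPM (-1.33, SE 0.1, edgeR adjusted p = 1.4e-08). Med13l was lower at day 9 than in MEFs (-1.07, SE 0.07, edgeR adjusted p = 2.3e-09). Both calls were lost with library-size scaling and with limma on log2(TPM + 1), and without MEF replicate 1 Med13l was at -1.0. Rbm19 was called in neither span.

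The genes most like a member in profile were found by the root mean square difference of mean-centred log2 CPM over the 10 libraries, among 14447 protein-coding genes. The 3 nearest to Tbx2 were Gpm6b (0.33), Limch1 (0.34) and Aqp4 (0.35). Limch1, for instance, averaged 28.9 CPM in MEFs, 368, 370 and 229 CPM in the induced groups and 4.74 CPM in ESCs. For Tbx3 they were Smoc1 (0.3), Ccno (0.41) and Slc7a8 (0.49). Smoc1 had 6.95 and 7.38 CPM in MEFs and at day 3, 1.16 and 0.89 CPM at day 6 and day 9, and 39.5 CPM in ESCs. Tbx15 was nearest to Tmem176a (0.26), Hoxa11 (0.29) and Tmem176b (0.3), and Tbx18 to Sfxn3 (0.17), Csdc2 (0.17) and Stambpl1 (0.18).

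Tbx4 lay closest to Mst1r (0.15), Hecw2 (0.28) and Glipr2 (0.28), and Tbx5 to Sp100 (0.26), Rin3 (0.26) and Flt3l (0.29). For Tbx1 the nearest were Klf7 (0.26), Ston1 (0.27) and Npas3 (0.27). Eomes was nearest to Vwa3b (0.34), Tuba3b (0.43) and Rnf17 (0.48), of which Rnf17 averaged at most 2.0 CPM outside ESCs and 104 CPM in them. The likeness is a distance in these 10 libraries, which fall into 5 groups, and says nothing of shared function.

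**Figure D5:**
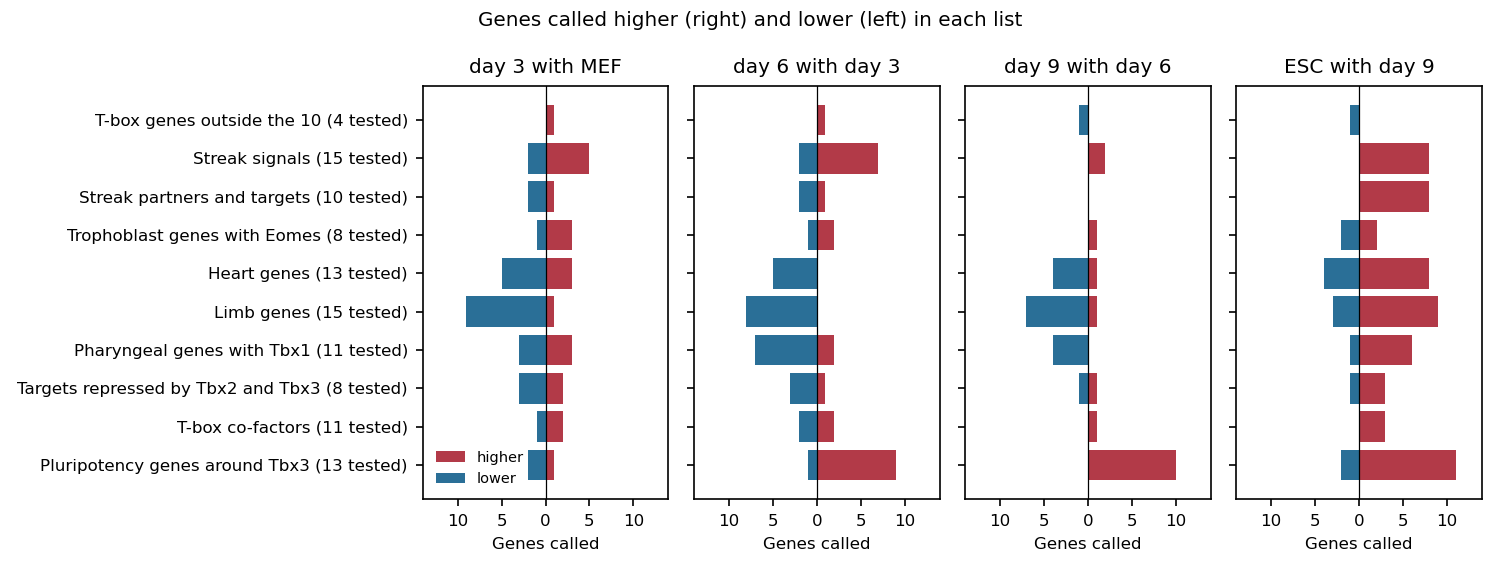
Number of genes called higher (right, red) and lower (left, blue) in each of 10 lists at the 4 successive steps, with the number tested in each list. At the ESC step 11 of 13 pluripotency genes were higher, and 9 of 15 limb genes.

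Genes that work with or under the members were taken from 10 lists, chosen with earlier results of these data known. The lists overlap in a few genes, such as Fgf10 and Hand2, and hold 117 distinct genes, 102 of them tested. Of these, 21 were higher and 25 lower from MEF to day 3, 25 and 26 at the day 6 step, 17 and 14 at the day 9 step, and 53 and 13 at the ESC step. From MEF to ESC 45 were higher and 34 lower, and from MEF to day 9 34 and 33. The share called was 45.1%, 50.0%, 30.4%, 64.7%, 77.5% and 65.7% in that order, and the shares of all genes are given above. Because the lists were chosen with earlier results known, nothing is read from the difference. In the lists that follow, values are CPM and every gene said to rise or fall passed the edgeR test at an adjusted p under 0.05 and 2-fold. With limma on log2(TPM + 1) many of those under about 1 TPM miss 2-fold.

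Limb genes, partners of Tbx4, Tbx5 and Tbx15 in the limb bud, were mostly lower in induced cells. From MEF to day 3, 9 of 15 were lower and 1 higher, with a median log2 fold change of -1.42 beside 0.08 for all genes. Fgf10, the growth factor under Tbx5 and Tbx4 in the limb, fell from 12.3 ± 1.31 to 0.315 ± 0.14, and Shox2 from 39.2 ± 1.85 to 1.91 ± 0.531. Msx1 rose from 0.362 ± 0.167 to 1.97 ± 0.368. From day 3 to day 6, 8 fell and 0 rose (median -1.72 beside 0.03), Prrx2 from 39.5 ± 2.95 to 1.42 ± 0.26 and Alx4 from 11.1 ± 0.545 to 0.88 ± 0.081. From day 6 to day 9, 7 fell and 1 rose (median -0.85 beside 0). Pitx1, the hindlimb factor above Tbx4, fell from 2.89 ± 0.153 to 0.281 ± 0.148, and Lmx1b rose from 0.657 ± 0.0554 to 2.46 ± 0.437.

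Between day 9 and ESC, 9 limb genes rose and 3 fell (median 1.47 beside 0), among them Grem1, a BMP antagonist, from 0.996 ± 0.0909 to 55.8 ± 4.88. Between MEF and ESC 0 rose and 13 of 15 fell, with a median of -2.8 beside 0.1. From MEF to day 9, 12 fell and 1 rose (median -5.7 beside 0.19), Grem1 from 142 ± 4.49. Fibroblast marker sums moved in the same direction at each of these steps, from 9090 TPM in MEFs on average to 11 at day 9 and 761 in ESCs, and their part in the limb gene result was not tested.

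Heart genes, which work with Tbx5, Tbx20 and Tbx2, moved both ways. At day 3, 3 of 13 tested were higher and 5 lower than in MEFs (median -0.52 beside 0.08). Gata4, a partner of Tbx5, fell from 6.79 ± 1.09 to 0.422 ± 0.406, and Nppb, a natriuretic peptide gene, rose from 1.15 ± 0.00944 to 5.44 ± 0.756. To day 6, 5 fell and 0 rose, with a median of -0.36, or 0 with genes at 0 reads set at their bound; Mef2c fell from 20.6 ± 0.127 to 3.92 ± 0.322. To day 9, 4 fell and 1 rose (median -0.51), with Gata6 going from 4.47 ± 0.828 to 1.38 ± 0.185. Going from day 9 to ESC, 8 rose and 4 fell (median 1.43): Myh6 rose from 0.295 ± 0.19 to 4.26 ± 0.615 and Nppb fell from 5.84 ± 0.0292 to 0.531 ± 0.0424. Over the span from MEF to ESC 4 rose and 8 fell (median -1.36), and from MEF to day 9 2 rose and 6 fell (median -1.06).

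Pharyngeal genes around Tbx1 had 3 of 11 higher and 3 lower in day 3 cells than in MEFs (median -0.36 beside 0.08). Chd7, a chromatin remodeller tied to Tbx1 in arch development, rose from 2.9 ± 0.34 to 30.9 ± 1.38, and Pax1 from 3.23 ± 0.603 to 14.5 ± 0.355. To day 6, 2 rose and 7 fell (median -2.01): Gbx2 rose from 0.227 ± 0.0549 to 11.6 ± 0.864, Pax1 fell to 1.49 ± 0.0965, and Foxc2 went from 1.79 ± 0.0213 to 0 reads. To day 9, 4 fell and 0 rose (median -0.12), Pax1 to 0.325 ± 0.00487. In ESCs against day 9, 6 rose and 1 fell (median 1.57), with Foxc1 falling from 25.1 ± 2.26 to 3.47 ± 0.116. Against MEFs, 2 were higher and 6 lower in ESCs (median -1.6), and 2 higher and 8 lower at day 9 (median -3.17). Pax1 and Tbx1 both had their highest mean at day 3. Fibroblast marker sums went from 494 TPM on average in day 3 cells to 30.2 and 11 TPM in the sorted cells of day 6 and day 9, and to 761 TPM in ESCs, the same direction as most called heart and pharyngeal genes from day 3 on, and their part in these results was not tested.

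Genes known as targets held back by Tbx2 and Tbx3 were called in both directions. From MEF to day 3, when Tbx2 was higher, 2 of 8 tested rose and 3 fell (median -0.3 beside 0.08). Cdkn2b, a cell-cycle inhibitor gene, fell from 104 ± 1.14 to 20 ± 1.29. Cdh1, which encodes E-cadherin, rose from 0.37 ± 0.21 to 9.49 ± 1.13, and Gja1, a gap junction gene, from 67.2 ± 0.263 to 208 ± 1.61. To day 6, 1 rose and 3 fell (median -0.23), Cdh1 to 78.8 ± 1.99 and Ndrg1, a stress-response gene, from 35.9 ± 0.418 to 9.79 ± 0.246. To day 9, 1 rose and 1 fell (median 0.02), Cdh1 to 414 ± 12.4. At the ESC step, with less Tbx2 and more Tbx3, 3 rose and 1 fell (median -0.39): Cdkn2b rose from 6.88 ± 0.133 to 19.2 ± 0.665 and Gja1 fell from 241 ± 4.04 to 57.7 ± 0.372. Against MEFs, 1 was higher and 5 lower in ESCs (median -1.1), and 2 higher and 3 lower at day 9 (median -0.52). The 3 that rose at the ESC step, Cdkn2b, Ndrg1 and Shox2, were all lower in ESCs than in MEFs. Fibroblast marker sums averaged 9090 TPM in MEFs, 11 TPM at day 9 and 761 TPM in ESCs, which were grown on feeders. Their part in these results was not tested.

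Pluripotency genes around Tbx3 mostly rose after day 3. At day 3, 1 of 13 was higher and 2 lower than in MEFs (median 0 beside 0.08), Klf2 falling from 168 ± 3.08 to 14.9 ± 1.27. To day 6, 9 rose and 1 fell (median 4.11, or 3.73 with genes at 0 reads at their bound), among them Nr0b1, from 0.14 ± 0.0306 to 24.9 ± 0.352. To day 9, 10 rose and 0 fell (median 1.09), Prdm14 from 0.15 ± 0.0873 to 1.45 ± 0.135. Between day 9 and ESC, 11 rose and 2 fell (median 2.9). Zfp42 rose from 2.61 ± 0.123 to 290 ± 1.08 and Tcl1, an activator of the Akt kinase, from 0.634 ± 0.0325 to 57.8 ± 0.271. Klf4, which the cassette also encodes, fell from 411 ± 12 to 182 ± 4.77 and Nr5a2 from 85.1 ± 1.74 to 35.7 ± 0.0582, the latter just short of 2-fold with limma on TPM. Over the span from MEF, 11 were higher and 0 lower in ESCs (median 9.15, or 8.85 at the bounds), and 10 higher and 1 lower at day 9 (median 7.34, or 5.95). At day 6 and day 9 Tbx3 itself stayed at or below 2.94 CPM.

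Streak signals, the Nodal, Wnt, FGF and BMP genes that act above T and Eomes, held called genes from day 3 on. From MEF to day 3, 5 of 15 tested rose and 2 fell (median 0.02 beside 0.08): Fgf4 went from 0.049 ± 0.017 to 94.3 ± 3.06 and Gdf3 from 0 reads to 2.62 ± 0.365, while Lefty1 fell from 4.25 ± 0.205 to 2.01 ± 0.166, a call lost with library-size scaling, with limma on TPM and without day 3 replicate 2 (log2 fold change -0.99). To day 6, 7 rose and 2 fell (median 0), Tdgf1, the Nodal co-receptor, from 0.209 ± 0.0859 to 27.7 ± 0.287, and Bmp4 fell from 30.2 ± 0.143 to 2.77 ± 0.0136. To day 9, 2 rose and 0 fell (median 0.52), Tdgf1 to 99.2 ± 0.481 and Foxh1, the Nodal pathway factor, from 4.12 ± 0.673 to 12.8 ± 0.0195. Going from day 9 to ESC, 8 rose and 0 fell (median 1.34), Lefty1 from 2.6 ± 0.862 to 96.5 ± 3.17. From MEF to ESC, 11 rose and 3 fell (median 6.94, or 3.32 with genes at 0 reads at their bound), and from MEF to day 9 8 rose and 2 fell (median 2.27, or 1.66). Nodal itself went from 0 reads in MEFs to 16.2 ± 0.375 at day 9 and 52.6 ± 2.35 in ESCs.

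Of the 17 streak partners and targets of T and Eomes, 10 passed the filter on low counts, and most of these were called at the ESC step. Some passed the filter on their ESC reads. Cdx1 had 62 and 78 reads in ESCs and at most 3 elsewhere, and Dll3 121 and 131 reads and at most 10 elsewhere. The share called higher in ESCs is thus partly set by the filter, and nothing is read from it. To day 3, 1 of 10 tested rose and 2 fell (median 0 beside 0.08), Snai1, the repressor of E-cadherin in the streak, from 45.1 ± 0.465 to 10.7 ± 0.031, and Gsc, a homeobox gene of the organizer, from 1.16 ± 0.126 to 0.55 ± 0.0164. The call of Gsc (log2 fold change -1.08, SE 0.4, edgeR adjusted p = 0.031) was lost with DESeq2, library-size scaling and limma on TPM, and without any 1 of the MEF and day 3 libraries (-1.18 to -0.95), which leaves 1 fall. To day 6, 1 rose and 2 fell (median 0.26, or 0 at the bounds), Snai1 to 1.47 ± 0.535. To day 9, 0 of 10 were called by edgeR (3 had an unadjusted p under 0.05), and 0 by DESeq2 or limma on TPM (median 0.13, or 0.04 at the bounds). In ESCs against day 9, 8 rose and 0 fell (median 2.97): Dll3, a Notch ligand of the presomitic mesoderm, from 0.255 ± 0.00325 to 3.53 ± 0.047 and Cdx1 from 0 reads to 1.95 ± 0.181, a call that DESeq2 did not make. From MEF to ESC, 8 rose and 1 fell (median 4.56, or 3.49), and from MEF to day 9 3 rose and 2 fell (median 1.19, or 0.25). Snai1 was at 0.761 ± 0.0308 at day 9 and 9.58 ± 0.88 in ESCs, the same direction as the fibroblast marker sums, whose part was not tested.

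Trophoblast genes known beside Eomes were called in both directions. To day 3, 3 of 8 tested rose and 1 fell (median 0.3 beside 0.08), Tead4 from 5.36 ± 0.206 to 29.2 ± 0.932. To day 6, 2 rose and 1 fell (median 0.11), Tfap2c from 1.19 ± 0.14 to 39.0 ± 0.186. To day 9, 1 rose and 0 fell (median 0.05, or 0 at the bounds): Elf5, the trophoblast factor that works with Eomes, from 1.04 ± 0.0634 to 8.82 ± 0.297. At the ESC step, 2 rose and 2 fell (median 0.03), and Elf5 fell to 0.579 ± 0.139 while Eomes was higher. Against MEFs, 4 were higher and 1 lower in ESCs (median 1.03) and also at day 9 (median 1.05), with Fgfr2 lower in ESCs, at 6.33 ± 0.301 beside 39.5 ± 0.769.

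T-box co-factors, the Groucho, Ripply and demethylase genes, had 2 of 11 tested that rose and 1 that fell at day 3 (median -0.02 beside 0.08). Tle4, a Groucho co-repressor, rose from 9.6 ± 0.945 to 21.6 ± 0.109, and Tle2 fell from 24.9 ± 1.41 to 6.13 ± 0.743. To day 6, 2 rose and 2 fell (median 0.3), Tle4 to 64.6 ± 3.89 and Tle3 falling from 114 ± 0.644 to 53.9 ± 0.538. To day 9, 1 rose and 0 fell (median 0), Ripply3, a repressor partner of Tbx1, from 0.594 ± 0.241 to 1.34 ± 0.567. That call was lost with DESeq2, with limma on TPM, without day 6 replicate 2 (log2 fold change 0.78) and without day 9 replicate 1 (0.65). Between day 9 and ESC, 3 rose and 0 fell (median 0.2), Ripply1 from 0.21 ± 0.0244 to 2.33 ± 0.254. Against MEFs, 3 were higher and 1 lower in ESCs (median 0.19), and 2 higher and 2 lower at day 9 (median 0.54).

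The 7 T-box genes outside the 10, taken as a list with 4 tested, had 1 higher and 0 lower at day 3 (median 0.59 beside 0.08) and to day 6 (median -0.12), 0 higher and 1 lower to day 9 (median 0.15) and from day 9 to ESC (median 0.52). Each of these calls was Tbx21. Against MEFs, Tbx21 and Mga were higher in ESCs (median 1.15), and Tbx21 at day 9 (median 0.62). The call of Tbx21 in ESCs rests on 5 and 19 reads and was lost with limma on log2(TPM + 0.1) (0.73) and log2(TPM + 1) (0.1).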

How the data were processed

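RNA-seq of 10 libraries was used, 2 in each of 5 groups named by the sample titles. Per the labels, poly(A) libraries came from a stranded kit and were read as single reads of 50 nt, and all carry the same batch label. Transcripts were quantified with Salmon 0.8.2 and build mm10, per the submitters' processing notes. The authors deposited a table per library with 109617 transcripts, each with an estimated count of reads and, per the file headers, a TPM value. The deposited length and effective length columns (nt) are another measure, and effective lengths were identical in all tables.

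Estimated counts and TPM were summed to 45706 genes by symbol and gene ID, and counts were rounded. The filterByExpr function (minimum count 10, minimum total 15) kept 20165 genes. edgeR 4.0.16 in R 4.3.3, with TMM scaling and 1 mean per group over all 10 libraries, gave quasi-likelihood tests and called genes at a Benjamini-Hochberg adjusted p under 0.05 and a log2 fold change of at least 1 in size. An SE is the size of the log2 fold change divided by the root of F. Scripts were tested on simulated data. Each library was counted as 1 sample. Replicates differed by more than sampling noise (chi-square per degree of freedom 2.91 to 5.42), which does not show whether they were separate cultures. Positions come from GENCODE M21 (GRCm38), where 98.8% of gene IDs were found.

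The members and gene lists were chosen with earlier results of these data known. Named were all T-box genes, called neighbours, the 3 genes nearest to each member in profile and, per list and comparison, at most 2 called genes with the largest rise and 2 with the largest fall at 1 CPM or more. Pax1, Klf2, Cdh1, Snai1, Grem1, Nodal and other genes so named are followed into other steps for their values. Alternatives were DESeq2 1.42.0, limma 3.58.1 on log2(TPM + 1) and log2(TPM + 0.1), no filter, a filter that asks for 1 CPM in 2 libraries, library-size and RLE scaling, fits to only 2 groups, a replicate block, and leaving out each library. Other software was Python 3.11.15, pandas 2.3.3 and matplotlib 3.10.9. Data other than RNA-seq were not analysed here.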

Additional observations from a re-analysis of the deposited data

How the results depend on the processing

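No called value changed sign under any alternative run. With limma on log2(TPM + 1), which shrinks low genes, fewer genes were called: of the listed genes 21 at day 3, 31 to day 6, 9 to day 9 and 40 at the ESC step, 5 neighbour values in place of 9, and over all genes 2659, 1394, 381, 2762, 5047 (MEF to ESC) and 4623 (MEF to day 9). With log2(TPM + 0.1) 973 genes were called from day 6 to day 9. The counts under all other settings, each leave-one-out fit included, stayed within 1.5 times the main count. With the replicate block, 45 listed genes were called at day 3 in place of 46, Gsc missing the threshold (edgeR adjusted p = 0.052), and no count moved by over 1.5 times. Deviations of libraries with the same number correlated between -0.0205 and 0.0222. The labels give no pairing beyond the number, and these values, taken over all tested genes with low counts among them, cannot exclude one. Of 197 values of single genes outside the members, 65 lost their call under at least 1 alternative, 4 gained one under at least 1 and 128 kept their side of the threshold under all that gave a value.

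Among the members, the 2-fold difference of Tbx1 at day 3 was below 2-fold with DESeq2 and RLE scaling (log2 fold change 0.92), in the fit of 2 groups (0.99), and without day 3 replicate 1 (0.96) or MEF replicate 2 (0.68). Tbx5 from day 9 to ESC was at 0.9 without day 9 replicate 2. T missed the rule at day 3 without MEF replicate 1, and at the ESC step without ESC replicate 2 or either day 9 library. Tbx4 missed it from day 6 to day 9 without replicate 1 of day 6 or of day 9. With limma on log2(TPM + 0.1), Tbx1 at day 3 (0.96), Tbx4 at day 9 (-0.51) and Tbx1 (-0.94), Tbx5 (0.83), Tbx18 (-0.92) and T (0.78) at the ESC step were below 2-fold. With log2(TPM + 1), the members past the rule numbered 2, 1, 2 and 3 at the 4 steps in place of 5, 3, 3 and 9. Scaling by library size moved the median of all genes to 0.285 at day 3, 0.438 in ESCs and 0.482 at day 9, each against MEFs, and the same members passed the rule as with TMM. With 2 libraries per group and few reads, differences of T, Tbx20, Tbr1 and the partners below about 1 CPM are weakly resolved.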
